A study of Mus musculus with 11 samples.

Results

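Of 11 mouse arrays that each set 1 RNA sample against a mouse embryo reference, 1 was labelled Liver. Its log ratios were compared with those of the arrays labelled Kidney and Lung, first as the difference from their mean and then as the difference from the higher of them. The difference from the lower of the pair was added, so that genes below both could be listed. Values on all 3 arrays were present for 7068 of the 7114 named genes. Per the labels, Trizol was used to extract the RNA of each sample, which then carried Cy3, while the embryo reference common to all arrays carried Cy5. Strain, age, treatment and number of animals are not given in the labels used here. Each label had 1 array, without a replicate or a dye swap. The other 8 arrays were labelled Heart, Melan A, D6_MEL, NRAS_MEL, HRAS_MEL, VA_MEF, VA_475 and 3T3. The series title names RAS isoforms in melanocytes and states no question for the organ arrays.

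The lung exchanges gas across alveoli, which are lined by flat type 1 cells and by cuboidal type 2 cells that make surfactant, the film of lipid and protein that keeps alveoli from collapsing. Its airways are lined by ciliated cells that move mucus and by secretory cells that make it, and a dense capillary bed, elastic matrix and resident macrophages lie around the epithelium. The adult liver makes most plasma proteins and breaks down amino acids, and liver and kidney tubule both burn fatty acids at a high rate.

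A level is given below as the log2 ratio of an array's own RNA to the embryo reference, centred on the array's median. Base 2 was assumed. Levels of different genes cannot be set against each other, because the amount of each gene in the embryo RNA is unknown. The sources used here do not say which way the deposited ratio runs. The titles name the sample before the reference, but in the table as deposited each organ marker list stood far below 0 on 1 array, so the table was read as reference over own RNA and the sign was turned. This direction is likely and not stated, and in the opposite case every sign below would turn. With 1 array per label there was no test of a condition. The error that could be measured was the spread between probes of 1 gene, whose SD for the difference from the mean had a median of 0.29 and a root mean square of 0.56 over 1799 genes with 2 or more probes. In bulk RNA, fewer cells of a type and less RNA per cell cannot be told apart.

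The label of the array went against its markers. Sftpd, Cbr2, Lyz2 and Slc34a2, all abundant in lung, were 42.8 to 167 times as high on the array labelled Liver as on the higher of the arrays labelled Kidney and Lung. Alb, which encodes serum albumin, stood at -6.95 on the array labelled Liver, at -6.21 on the array labelled Kidney and at 2.54 on the array labelled Lung. Of 12 measured genes on a liver marker list, the median level was -1.31 on the array labelled Liver and 3.52 on the array labelled Lung. The array labelled Kidney carried the kidney list, with a median of 3.01 over 8 genes, and the array labelled Melan A carried the heart muscle list, with a median of 3.17 over 6 genes. The names are kept as labelled throughout, but the comparison therefore sets an array with lung markers against 1 array with kidney markers and 1 with liver markers. Results are also given against the array labelled Kidney alone, which leaves out the array labelled Lung.

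Per array, 15170 to 15210 probes had a value, and the array labelled Liver had the narrowest spread, with an SD of 0.733 in the deposited values against up to 1.02 on the others. Across genes, its Pearson correlation with the array labelled Kidney was 0.410, with the array labelled Lung 0.288 and with the rest 0.209 to 0.379. All arrays share the reference channel, so these correlations describe the arrays and were not tested.

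Promoter sequence is shown for the marker genes that head the comparison. The arrays measured RNA, and these bases before the start were not measured. The 250 bases before the start of transcription were taken from a RefSeq promoter table of build GRCm38.p6, for Slc34a2 at chr5:53049103-53049352 on the plus strand, for Cbr2 at chr11:120732022-120732271 on the minus strand and for Lyz2 at chr10:117282273-117282522 on the minus strand. Sftpd is named without a sequence. Each is written 5′ to 3′, with any match to a searched motif in capitals.
Slc34a2: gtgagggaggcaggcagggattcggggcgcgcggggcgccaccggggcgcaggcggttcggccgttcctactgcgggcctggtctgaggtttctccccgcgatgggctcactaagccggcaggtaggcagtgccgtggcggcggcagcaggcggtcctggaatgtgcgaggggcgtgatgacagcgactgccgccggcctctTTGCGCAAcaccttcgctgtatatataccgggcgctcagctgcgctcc
Cbr2: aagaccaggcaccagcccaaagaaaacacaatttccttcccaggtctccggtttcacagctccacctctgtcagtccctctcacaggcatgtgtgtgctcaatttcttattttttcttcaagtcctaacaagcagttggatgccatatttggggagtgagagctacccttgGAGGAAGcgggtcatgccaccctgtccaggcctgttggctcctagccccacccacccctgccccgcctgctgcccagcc
Lyz2: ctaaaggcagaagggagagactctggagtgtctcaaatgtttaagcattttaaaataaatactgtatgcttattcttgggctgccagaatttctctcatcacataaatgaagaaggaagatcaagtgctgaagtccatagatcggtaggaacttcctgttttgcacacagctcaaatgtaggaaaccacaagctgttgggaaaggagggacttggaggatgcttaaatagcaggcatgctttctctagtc
Both strands were searched for 6 motifs of factors known in lung epithelium or myeloid cells and for the TATA box among them: CTCAAG (NKX2-1), TGTTTAC (FOXA), TTGCNNAA (C/EBP), TGANTCA (AP-1), GAGGAAG (PU.1) and TATAAA. The Slc34a2 promoter, with a GC content of 69.6%, held the C/EBP letters 48 bases before the start. The Cbr2 promoter, with a GC content of 55.6%, held the PU.1 letters 79 bases before the start. The Lyz2 promoter, with a GC content of 41.6%, held no match, and no match overlapped another. Such letters are common, since 9.56% of all 32851 promoters of the table held the C/EBP motif and 10.6% the PU.1 motif. Among 497 promoters of genes at least 2-fold above both arrays, the shares were 7.04% and 13.5%, against 7.29% and 10.6% of the 7315 promoters of measured genes. For the NKX2-1 letters the shares were 13.3% and 12.2%. A match describes the letters only.

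The array labelled Liver stood at least 2-fold above both others in 466 genes, which is 6.59% of the genes compared, and at least 2-fold below both in 340 genes, or 4.81%. Against their mean, 712 genes (10.1%) were at least 2-fold higher and 621 (8.79%) at least 2-fold lower. The median of all genes was 0.02 against the mean of the pair, -0.18 against the higher array and 0.24 against the lower. Of the 466 genes, 370 stood above the embryo reference on the array labelled Liver and 266 were higher there than on any of the other 10 arrays. At least 2-fold above all other 10 arrays lay 107 of 7035 genes, or 1.52%, and at least 2-fold below all of them lay 10, or 0.142%. Where a gene of the 466 had 2 or more probes with a value on all 3 arrays, which 71 did, every probe was at least 2-fold above both arrays in 38 and above both by any amount in 70. Of 55 such genes below both arrays, every probe was at least 2-fold lower in 28 and lower in 51.

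**Figure D1:**
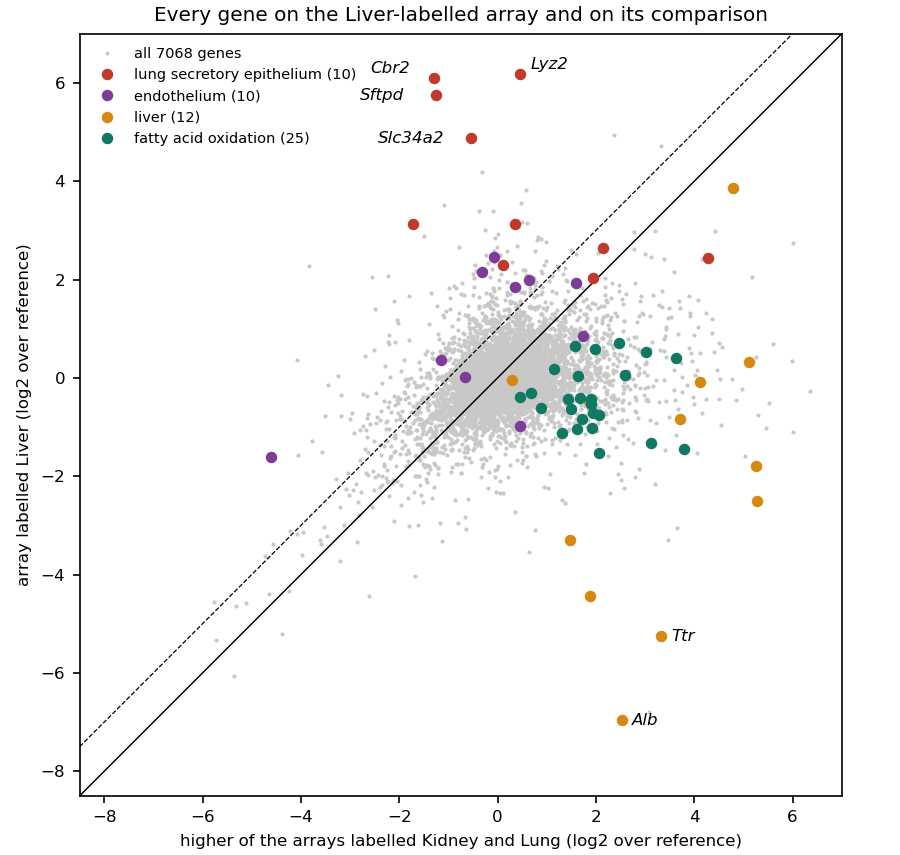
Level of each gene (log2 own RNA over embryo reference) on the array labelled Liver, against the higher of its levels on the arrays labelled Kidney and Lung. Points are 7068 genes, the solid line marks equal levels and the dashed line a level 2-fold above the higher array. Cbr2, Sftpd, Lyz2 and Slc34a2 stand at the top left, liver genes such as Alb (-6.95) and Ttr (-5.25) at the lower right, and the 25 fatty acid oxidation genes all lie under the solid line.

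Genes of the lung's secretory cells were the highest group on the array labelled Liver. The marker genes and gene lists were chosen with earlier results of these arrays known, so their counts describe the array and are no independent evidence of its tissue. Of 32 genes written for the secretory epithelium, 10 were measured, and 8 of them were at least 2-fold above the mean of the pair and 7 above both arrays, with a median of 4.36. Of all genes, 10.1% and 6.59% were, and their median was 0.02. With Kidney alone as comparison the median was 3.92. No measured member stood below the mean.

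Sftpd, which encodes surfactant protein D, a collectin that binds microbes, stood at 5.75 on the array labelled Liver, -2.10 on the array labelled Kidney and -1.25 on the array labelled Lung. The other 8 arrays lay between -2.24 and -1.43, with a median of -1.79. Only the array labelled Liver was above the reference, by 7.0 or 128-fold over the higher of the pair, although this rests on 1 probe. Cbr2, a carbonyl reductase that is abundant in lung, stood at 6.10, -1.28 and -1.61 in the same order, and at -2.24 to -0.27 on the other 8. That is 7.38 or 167-fold above the higher array, the largest such difference of all genes. The probes of Cbr2 gave 7.11 and 7.65, so both carried it.

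Slc34a2, the sodium phosphate cotransporter of type 2 cells, stood at 4.88 on the array labelled Liver, -0.92 on the array labelled Kidney and -0.54 on the array labelled Lung, with 4.88 and 5.96 above the higher array in its probes. On the other 8 arrays it lay between -2.19 and -1.44, below all 3 of these values. Lyz2, a lysozyme of type 2 cells and macrophages, stood at 6.18, -1.43 and 0.47, and at -4.35 to 0.99 elsewhere, the 0.99 being on the array labelled Melan A. It was 5.71 or 52.3-fold above the higher array. Lpcat1, the acyltransferase that remodels surfactant phosphatidylcholine, stood at 3.13, -1.72 and -2.23, and its probes gave 4.48 and 5.22 above the higher array. In these 3 genes the array labelled Liver lay above all other 10.

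The remaining secretory genes differed less or were shared. Muc1, a membrane mucin, stood at 3.12 on the array labelled Liver, 0.36 on the array labelled Kidney and -1.35 on the array labelled Lung, 2.77 above the higher of them. Etv5, a transcription factor of type 2 cells, stood at 2.30, 0.12 and -1.52. Abca3, the transporter that loads surfactant lipid into lamellar bodies, was at 2.64, 2.14 and 0.96, a difference of 0.50 from the higher array that is within the root mean square spread between probes. Ctsh, a protease that processes surfactant proteins, was near level on all 3 arrays at 2.03, 1.38 and 1.94. Aox3, an aldehyde oxidase, was at 2.43, -0.55 and 4.29, so the array labelled Lung was the higher there.

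**Figure D2:**
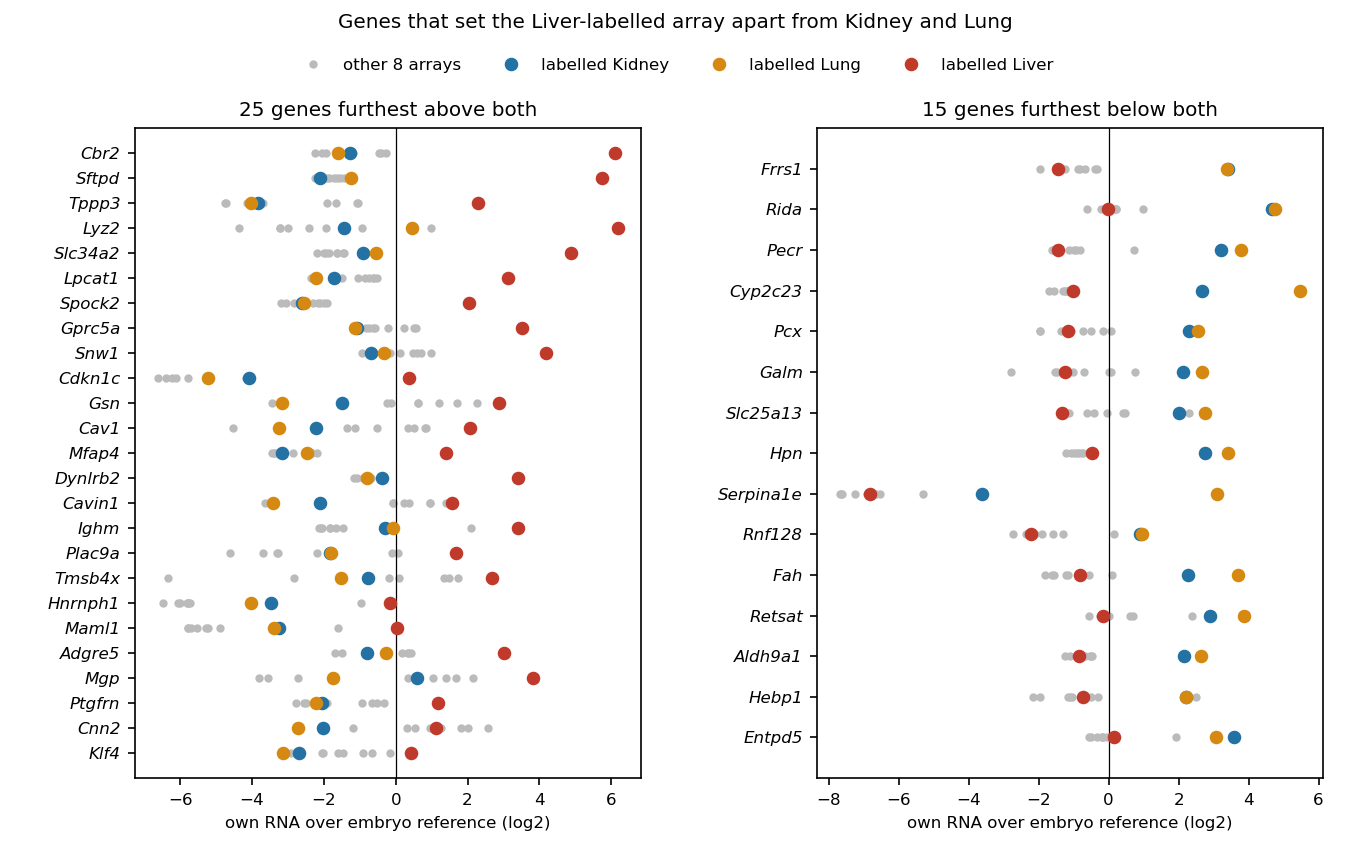
Levels (log2 own RNA over embryo reference) on every array of the 25 genes furthest above both the arrays labelled Kidney and Lung (left) and of the 15 furthest below both (right). Red points are the array labelled Liver, blue Kidney, orange Lung and grey the other 8. In 24 of the 25 genes the red point is the highest of all 11, whereas in 11 of the 15 it lies within the range of the 6 arrays labelled as lines.

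All 4 measured genes of the type 1 cell list, of 20 written, were at least 2-fold above both arrays, with a median difference of 4.21 from the mean and 2.98 from the array labelled Kidney alone. Cav1, the coat protein of caveolae, stood at 2.08 on the array labelled Liver, -2.23 on the array labelled Kidney and -3.24 on the array labelled Lung, and at -4.53 to 0.83 on the other 8. Gprc5a, an orphan receptor of lung epithelium, stood at 3.51, -1.09 and -1.12, 4.60 above the higher array. Krt7, a keratin of simple epithelia, was at 1.63, -0.03 and -4.32, and Lmo7, an adaptor at cell junctions, at 1.25, -0.25 and -1.49. These genes are not restricted to type 1 cells, since caveolae are also frequent in endothelium. Cavin1, which shapes caveolae together with Cav1, stood at 1.57, -2.10 and -3.42 and was 3.67 or 12.7-fold above the higher array.

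Ciliated cell genes split into a few far above both arrays and a majority near level. Of 10 measured genes, of 27 written, 3 were at least 2-fold above both, none was 2-fold lower than the mean, and the median was 0.70, or 0.45 against the array labelled Kidney alone. Tppp3, a tubulin-binding protein of motile cilia, stood at 2.28 on the array labelled Liver, -3.83 on the array labelled Kidney and -4.02 on the array labelled Lung, 6.11 or 69.0-fold above the higher. Dynlrb2, a dynein light chain, stood at 3.39, -0.38 and -0.81, with the other 8 arrays between -1.15 and -0.37. Rfx2, a transcription factor of ciliogenesis, was at 0.78, -1.20 and -1.25. Against these, Dnah5, an outer arm dynein heavy chain, was at 0.20, 0.05 and 0.41, and Rsph1, of the radial spoke head, at 0.96, 0.06 and 0.24. Rfx3 was at 1.05, 0.32 and 0.63, Cetn2 at 0.88, 0.94 and -0.04, and Ift88 at -0.32, 0.31 and -0.87. Odf2l and Cd24a had their highest value of the 3 on the array labelled Kidney, at 0.50 and -1.21.

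Of 20 measured genes for epithelial junctions and keratins, of 34 written, 6 were at least 2-fold above both arrays, none was below both, and the median was 0.93. Against the array labelled Kidney alone it was 0.43. Krt19, a keratin of simple epithelium, stood at 0.77, -2.12 and -1.79 on the arrays labelled Liver, Kidney and Lung, and the other 8 lay at -3.58 to -1.48, so it was highest on the array labelled Liver. Cd9, a tetraspanin of epithelial membranes, stood at 1.69, -0.68 and -1.61, but overlapped with the other 8 arrays, which reached 2.16. Cldn3 and Cldn7, claudins of tight junctions, were 1.11 and 1.10 above the higher array. Tjp1, the scaffold that anchors tight junctions, was at 1.19, -0.73 and -0.57. Elf3, an epithelial transcription factor, was 1.45 above the mean but 0.71 above the higher array. Perp, a desmosome component, was the exception at -2.49, -1.86 and -0.86.

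Endothelial genes were higher as a group. Of 10 measured, of 42 written, 8 were at least 2-fold above the mean, 6 were above both arrays and 1 was below both, with a median of 1.99, or 1.85 against the array labelled Kidney alone. Over all genes these shares were 10.1%, 6.59% and 4.81%. Pecam1, the adhesion molecule of endothelial junctions, stood at 2.46 on the array labelled Liver, -0.07 on the array labelled Kidney and -0.32 on the array labelled Lung, and at -2.12 to 1.46 on the other 8. Esam, a junctional adhesion molecule, stood at 2.16, -0.31 and -1.12. Cdh5, the cadherin of endothelium, was at 1.84, 0.35 and -0.40, and the other 8 reached 0.45. All 3 genes were highest on the array labelled Liver, by 2.53, 2.46 and 1.5 over the higher of the pair.

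Among the remaining endothelial genes, Gpihbp1, which holds lipoprotein lipase on capillaries, was at 1.99, -0.90 and 0.65. Car4, a carbonic anhydrase of capillary surfaces, was at 1.92 and 1.60 on the arrays labelled Liver and Kidney but at -2.71 on the array labelled Lung. Ednrb, an endothelin receptor, stood at 0.36, -1.16 and -1.19, and Stab1, a scavenger receptor of sinusoids, at 0.02, -2.15 and -0.67. Ctla2a, a protease inhibitor, was below the reference throughout, at -1.61, -5.37 and -4.60. Emcn, a sialomucin of capillaries, was higher on the array labelled Kidney, at 0.86 against 1.74. Fcgrt, the receptor that recycles immunoglobulin G, was below both, at -0.97, 0.37 and 0.46.

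**Figure D3:**
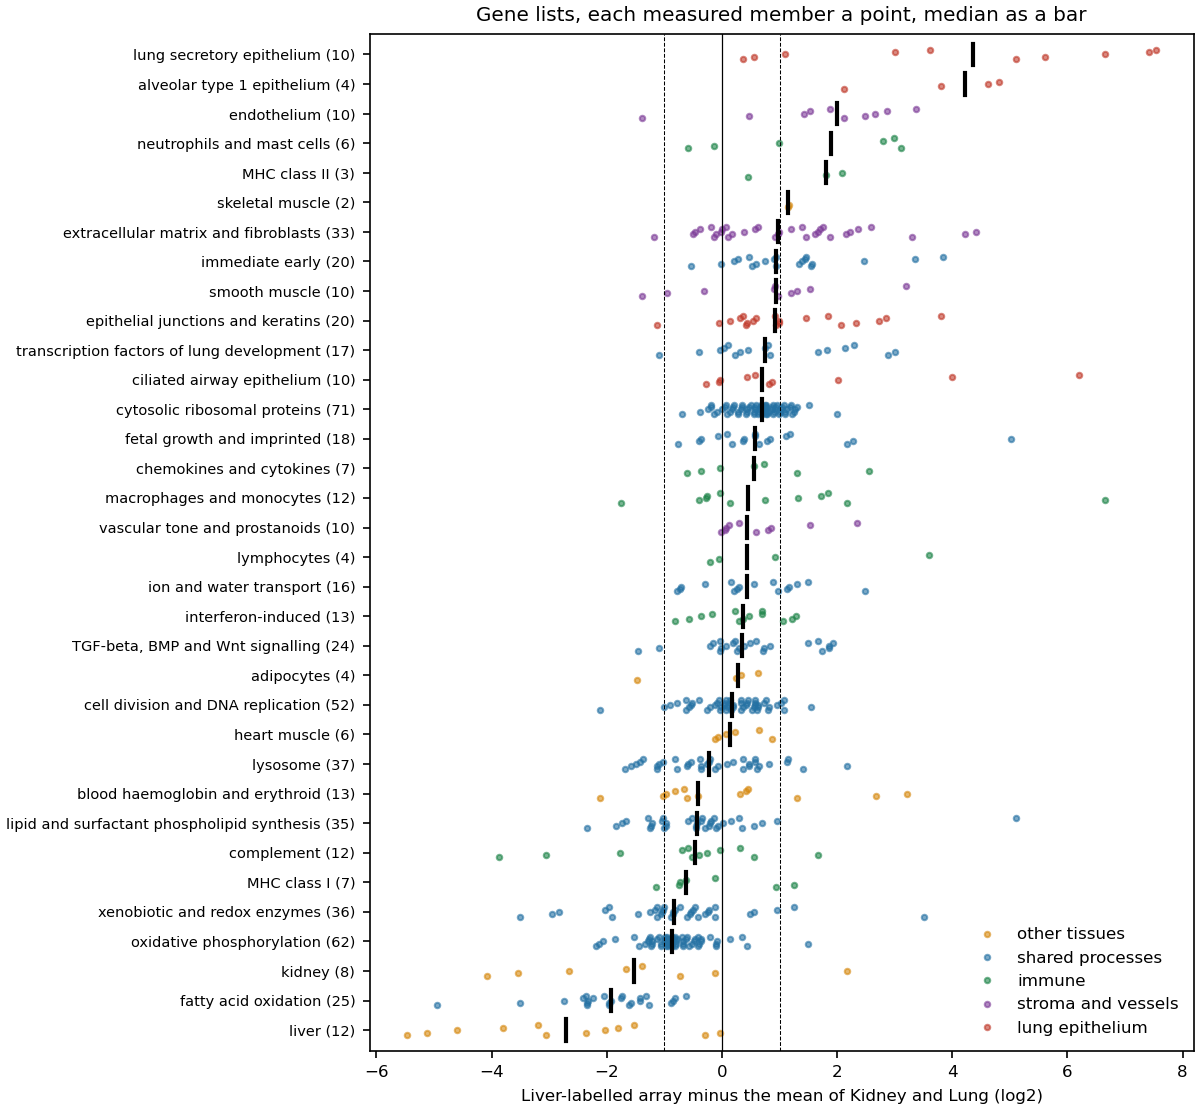
Difference of the array labelled Liver from the mean of the arrays labelled Kidney and Lung (log2) for each measured member of 34 gene lists, with the number of members in brackets, the list's median as a bar and 2-fold differences as dashed lines. Secretory epithelium (4.36), type 1 epithelium (4.21) and endothelium (1.99) have the highest medians, and fatty acid oxidation (-1.92) and liver (-2.71) the lowest.

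Among matrix genes, Mgp, Mfap4 and Timp2 stood furthest above the mean. Of 33 measured, of 57 written, 24 were higher than the mean and 9 lower, 15 were at least 2-fold above it and 1 as far below, 11 were above both arrays and none was below both, and the median was 0.98. It was 0.68 against the array labelled Kidney alone. Mgp, the matrix Gla protein that keeps soft tissue from calcifying, stood at 3.82, 0.58 and -1.76 on the arrays labelled Liver, Kidney and Lung, with the other 8 at -3.82 to 2.16. Mfap4, a microfibril protein that binds elastic fibres, stood at 1.40, -3.16 and -2.48, with the others at -3.44 to -2.18. Both were highest on the array labelled Liver, and Mfap4 stood above the reference on no other array.

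Col4a1 and Col4a2, the chains of basement membrane collagen, stood at 0.11 and 0.51 on the array labelled Liver and were 0.75 and 1.66 above the higher array. Col6a1, of microfibrillar collagen, was at -1.12, -2.92 and -3.76. Timp2, an inhibitor of matrix proteases, was at 2.11, -0.49 and -1.87, within the reach of the other 8, whose highest was 2.93. Col18a1, a basement membrane collagen, was the gene 2-fold lower, by 1.19, but its 3 probes disagreed, at -3.10, -1.58 and 1.11 from the mean. Sparcl1, a matricellular protein, and Serpinh1, the chaperone of collagen, were 1.77 and 1.56 above the higher array. Spock2, a proteoglycan outside the list, was the seventh furthest above both arrays, at 2.05, -2.60 and -2.56, and the other 8 lay at -3.19 to -1.91. Ptgfrn, a membrane partner of tetraspanins, stood at 1.17, -2.04 and -2.22.

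Of 10 measured smooth muscle genes, 4 were at least 2-fold above the mean, 3 above both arrays and 1 below both, with a median of 0.94, or 0.73 against the array labelled Kidney alone. Csrp1, a LIM protein of smooth muscle, stood at 1.92, -0.71 and -1.82 on the arrays labelled Liver, Kidney and Lung. Mylk, the myosin light chain kinase, was at 1.11, -0.18 and -0.67, and Tpm2, a tropomyosin, at -3.38, -4.79 and -4.57. Cnn1, the calponin that marks contractile smooth muscle, did not follow, at -0.90, 0.50 and -0.40, nor did Ppp1r12b, a subunit of myosin phosphatase, at -1.13, 0.46 and 0.07. Myl9, a regulatory light chain, was 1.20 above the mean, Flna, Tpm1 and Smtn were 0.91 to 0.97 above it, and Cald1 was 0.32 below it. The probes of Flna went opposite ways, at 2.68 and -0.86 from the mean. Of 10 measured genes for vascular tone, 2 were above both arrays. Gucy1a1, a subunit of the nitric oxide receptor, was 1.86 above the higher, and the other was Ednrb. The remaining 8, which were Adm, Agt, Agtr2, Npr3, Pde5a, Prkg1, Ptges and Ptgis, lay between -0.01 and 0.84 from the mean.

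Immune genes were mixed in direction. Of 12 measured macrophage and monocyte genes, of 54 written, 5 were at least 2-fold above the mean, 1 was 2-fold lower, 3 were above both arrays and 1 was below both, with a median of 0.45. Against the array labelled Kidney alone the median was 0.96. Next to Lyz2, Laptm5, a lysosomal protein of blood cells, stood at 1.91, -0.84 and 0.30, and Alox5ap, which serves leukotriene synthesis, at 1.48, -0.23 and -0.49. Cybb, the catalytic subunit of the phagocyte oxidase, was at 2.11, 0.25 and 1.32, and Lcp1, an actin bundler of leukocytes, at 1.76, -0.82 and 0.90. The complement subunits C1qa, C1qb and C1qc were higher on the array labelled Lung, at 2.03, 0.75 and 1.42, than on the array labelled Liver, at 0.73, -0.02 and 0.02. Fcer1g and Cyba were 0.75 and 0.15 above the mean and Fcgr3 0.28 below it. Fcgr1, an immunoglobulin receptor of macrophages, was below both arrays at 0.05, 2.14 and 1.45. Lyz2 is also made by type 2 cells, and the part of macrophages in its level was not tested.

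Of 3 measured genes of antigen presentation by class II molecules, H2-Eb1 stood at 4.71, 3.31 and 2.49 on the arrays labelled Liver, Kidney and Lung and H2-DMa at 2.81, 0.79 and 0.68, so both were at least 2-fold above both arrays. Ifi30, a lysosomal reductase, was at -0.10, -0.50 and -0.60. Class I genes had a median of -0.62 over 7, with none at least 2-fold above both arrays and 1 below both, the chaperone calnexin (Canx) at -0.29, 1.01 and 0.72. B2m, the light chain of class I molecules, was at 0.15, -0.30 and 2.09, and Tapbp, of peptide loading, at 2.23, 0.57 and 1.37. Calr, Pdia3 and Psme1 were lower than the mean, at -0.62, -0.74 and -0.13 from it, and Tap2, a peptide transporter, was 0.93 above it. Of 13 interferon-induced genes, Irf8, a factor of myeloid cells, and Samhd1, which breaks down deoxynucleotides, were 1.17 and 1.16 above the higher array, Ly6e was 1.05 above the mean, and the median was 0.36.

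Ighm, the heavy chain of immunoglobulin M, stood at 3.40 on the array labelled Liver, -0.31 on the array labelled Kidney and -0.09 on the array labelled Lung, 3.48 or 11.2-fold above the higher. The array labelled Melan A was next at 2.09, and the rest lay down to -2.15. The other 3 measured lymphocyte genes, Rac2, Gimap4 and Ptpn6, were within 2-fold of the mean. Of 6 genes of neutrophils and mast cells, 3 were above both arrays. Lcn2, an iron-sequestering protein of neutrophils and airway epithelium, stood at 1.09, -2.64 and -1.39, S100a9, a calcium-binding protein of neutrophils, at -1.56, -4.63 and -4.06, and Anxa1, an annexin that limits inflammation, at 0.72, -2.43 and -2.09. For Anxa1 the 6 arrays labelled as lines lay at -0.34 to 3.13, a range that holds the 0.72. Mmp9 and Csf3r, also of neutrophils, did not differ by 2-fold from the mean, at -0.58 and -0.14, nor did Ltf, lactoferrin, at 0.99. Adgre5, an adhesion receptor of leukocytes, was at 3.01, -0.79 and -0.26, and its probes gave 2.75 and 3.78 above the higher array.

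A pair of red blood cell genes stood above both arrays as well. Hbb-b1, an adult beta globin, stood at 0.24 on the array labelled Liver, -2.30 on the array labelled Kidney and -3.65 on the array labelled Lung, with 0.20 on the array labelled Melan A and down to -8.73 on the rest. Alas2, the first enzyme of haem synthesis in red cells, stood at -0.33, -3.27 and -2.75. Over the 13 measured genes of the list the median was -0.42, with 6 above the mean and 7 below it. Above both arrays were 2 (15.4%) and below both 1 (7.69%), where 6.59% and 4.81% of all genes were. Bpgm, of the red cell's glycolysis, was 1.29 above the mean, and the haem enzymes Cpox and Uros were 2.13 and 1.02 below the mean. The embryonic globins Hba-x and Hbb-y were 0.38 and 0.40 above the higher array. The part of blood in the levels of leukocyte and endothelial genes was not tested.

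**Figure D4:**
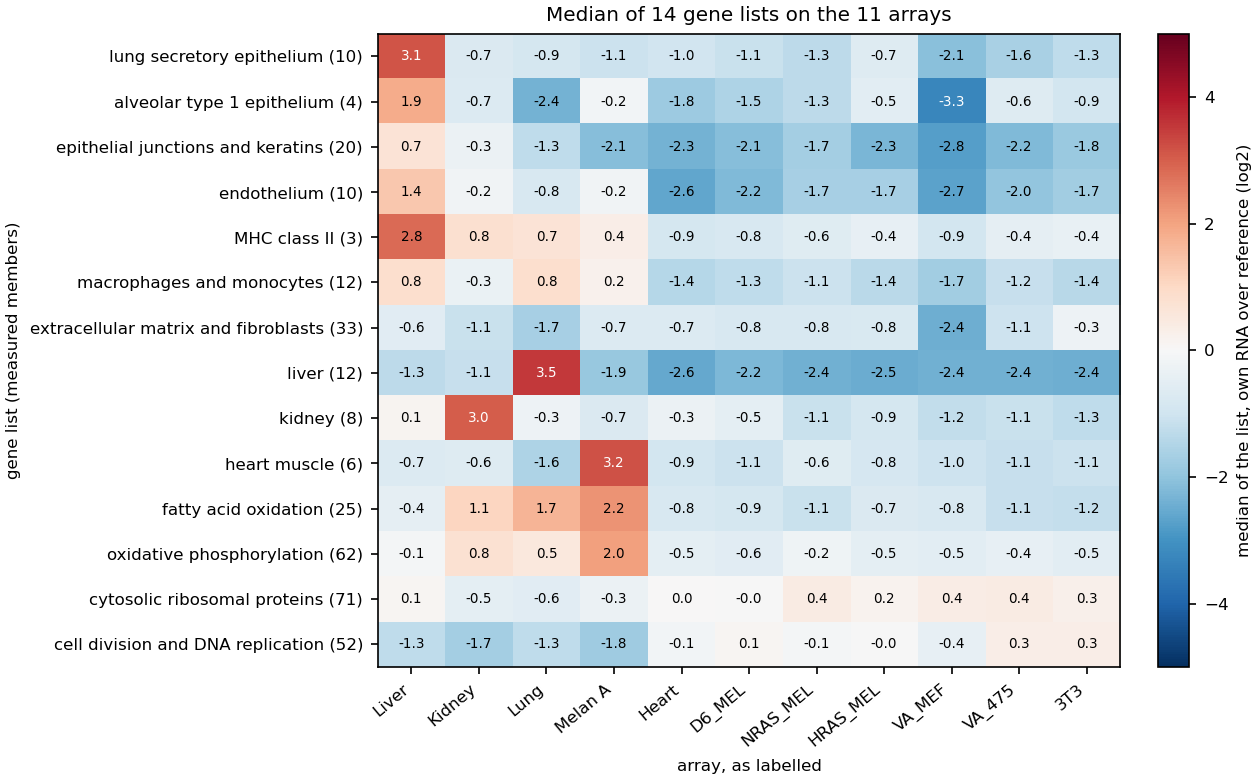
Median level (log2 own RNA over embryo reference) of 14 gene lists on each of the 11 arrays, with the number of measured members in brackets and red above, blue below the reference. The array labelled Liver has the highest medians for secretory epithelium (3.13), endothelium (1.35) and class II genes (2.81), while the liver list peaks on the array labelled Lung (3.52), the kidney list on Kidney (3.01) and the heart list on Melan A (3.17).

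Liver markers were low on the array labelled Liver. All 12 measured genes of the liver list, of 66 written, were lower than the mean, 10 of them by at least 2-fold, and the median was -2.71. Below both arrays by as much were 4, namely Ttr, Bhmt, Fah and Cth, or 33.3%, where 4.81% of all genes were. Against the array labelled Kidney alone the median was -0.14, with 4 genes at least 2-fold lower and 2 higher. The list's median level of -1.31 was above the -2.56 to -1.91 of the other 8 arrays. Ttr, the thyroxine carrier transthyretin, stood at -5.25 on the array labelled Liver, -2.89 on the array labelled Kidney and 3.33 on the array labelled Lung, and the other 8 lay at -6.37 to -5.41. Apoa1, the main apolipoprotein of high-density lipoprotein, stood at -4.44, -4.65 and 1.89. Bhmt and Mat1a, of the methionine cycle, were at -2.49 and -1.79 against 5.28 and 5.25 on the array labelled Lung. Cth, of cysteine synthesis, was at -0.47, 1.29 and 1.85, but its probes differed, lying 3.09 and 0.07 below the lower array. Tdo2, of tryptophan breakdown, Itih1, a plasma protein, and Apoc2, an apolipoprotein, were 2.36, 1.54 and 1.80 below the mean and highest on the array labelled Lung, and Apob was 0.29 below the mean. Ces1d, a carboxylesterase also made in lung, was high on all 3, at 3.87, 3.02 and 4.79.

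Of 8 measured kidney genes, 5 were at least 2-fold below the mean and 2 below both arrays, with a median of -1.53, of -3.87 against the array labelled Kidney alone and of 0.31 against the array labelled Lung alone. Miox, an enzyme of inositol breakdown in tubule, was at 0.34, 6.0 and -0.01, and Lrp2, the tubular scavenger receptor megalin, at 0.68, 5.60 and -1.44. Gatm, of creatine synthesis, stood at -3.31, 3.46 and -1.9, and Pdzk1, a scaffold of brush border transporters, at -0.71, 4.17 and 1.48, so both were below both arrays. Calb1, a calcium-binding protein of distal tubule, was 1.66 below the mean, and Cndp2, a peptidase, and Cubn, the receptor cubilin, were 0.72 and 0.11 below it. Podxl, a sialomucin of podocytes and of vessels, stood at 1.95 and 1.55 on the arrays labelled Liver and Kidney and at -1.99 on the array labelled Lung. None of 6 heart muscle genes was 2-fold away from the mean, from Atp2a2, the calcium pump of the sarcoplasmic reticulum, at -0.12 to Myl4, an atrial myosin light chain, at 0.87, with Nppb, Fabp3, Hrc and Actn2 between. The 4 probes of Atp2a2 lay at -0.76 to 1.36. Of 4 adipocyte genes, Adipor2, an adiponectin receptor, was 1.47 below the mean and Lpl, lipoprotein lipase, Pnpla2, a triglyceride lipase, and Sncg 0.24, 0.33 and 0.62 above it.

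Fatty acid oxidation was low across its members. All 25 measured genes, of 44 written, were lower than the mean of the pair, 21 were at least 2-fold below both arrays, where 4.81% of all genes were, and the median was -1.92. Against the array labelled Kidney alone it was -1.40 and against the array labelled Lung alone -2.43, with 21 genes at least 2-fold lower in each. Pecr, a peroxisomal enoyl-CoA reductase, stood at -1.44 on the array labelled Liver, 3.22 on the array labelled Kidney and 3.78 on the array labelled Lung, and Acadm, the medium-chain acyl-CoA dehydrogenase, at -1.32, 3.13 and 1.23. Eci2, an enoyl-CoA isomerase, stood at -0.75, 1.13 and 2.06. Hadh, of the later steps of the cycle, was at -1.11, 1.12 and 1.32, and Acaa2, the mitochondrial thiolase, at -1.53, 0.37 and 2.06. Etfa and Etfdh, which pass the electrons on, were 2.06 and 1.75 below the lower array. Scp2, a peroxisomal carrier and thiolase, was at 0.41, 2.0 and 3.62. Pecr is lower by 25.3-fold even against the lower array, but its level lay within the -1.63 to 0.72 of the other 8 arrays.

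The median of the same list was -0.44 on the array labelled Liver, 1.09 on Kidney, 1.71 on Lung and 2.24 on Melan A, and -1.20 to -0.70 on the 7 remaining arrays. The array labelled Liver therefore stood between the arrays with kidney, liver and heart markers and the 7 others.

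Genes of the citric acid cycle and pyruvate entry, a list added after the values were seen, were lower in all 19 measured members, 9 of them at least 2-fold below both arrays, with a median of -1.14. Pcx, the pyruvate carboxylase of gluconeogenesis, stood at -1.17, 2.30 and 2.56 on the arrays labelled Liver, Kidney and Lung. Fh1, the fumarase, was at -1.29, 0.89 and 0.64, and Mdh1, the cytosolic malate dehydrogenase, at -0.53, 1.71 and 1.28. Oxidative phosphorylation had a median of -0.87 over 62 genes, with 58 lower than the mean, 18 of them at least 2-fold, and 12 at least 2-fold below both arrays. Sdha, the flavoprotein of complex II, stood at -0.54, 1.89 and 1.40, and its probes lay 1.80 and 2.09 below the lower array. Uqcrc2, of complex III, was at -0.70, 1.91 and 0.98, and Atp5a1 and Atp5b, the catalytic head of ATP synthase, were at -1.23 and -0.91 on the array labelled Liver. Sdhd, Ndufa10 and Atp5c1 were 1.34 to 1.54 below the mean. Cox6b2, a cytochrome oxidase subunit known from testis, was the gene of this list above both arrays, at 0.70, -0.46 and -1.14. Below both arrays were 47.4% of the citric acid cycle list and 19.4% of the oxidative phosphorylation list, where 4.81% of all genes were. On the array labelled Liver the median levels were -0.59 and -0.10 in that order. They were -1.01 to -0.61 and -0.57 to -0.23 on the 6 arrays labelled as lines. On Heart they were -0.72 and -0.48, and on Melan A 2.23 and 2.04.

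**Figure D5:**
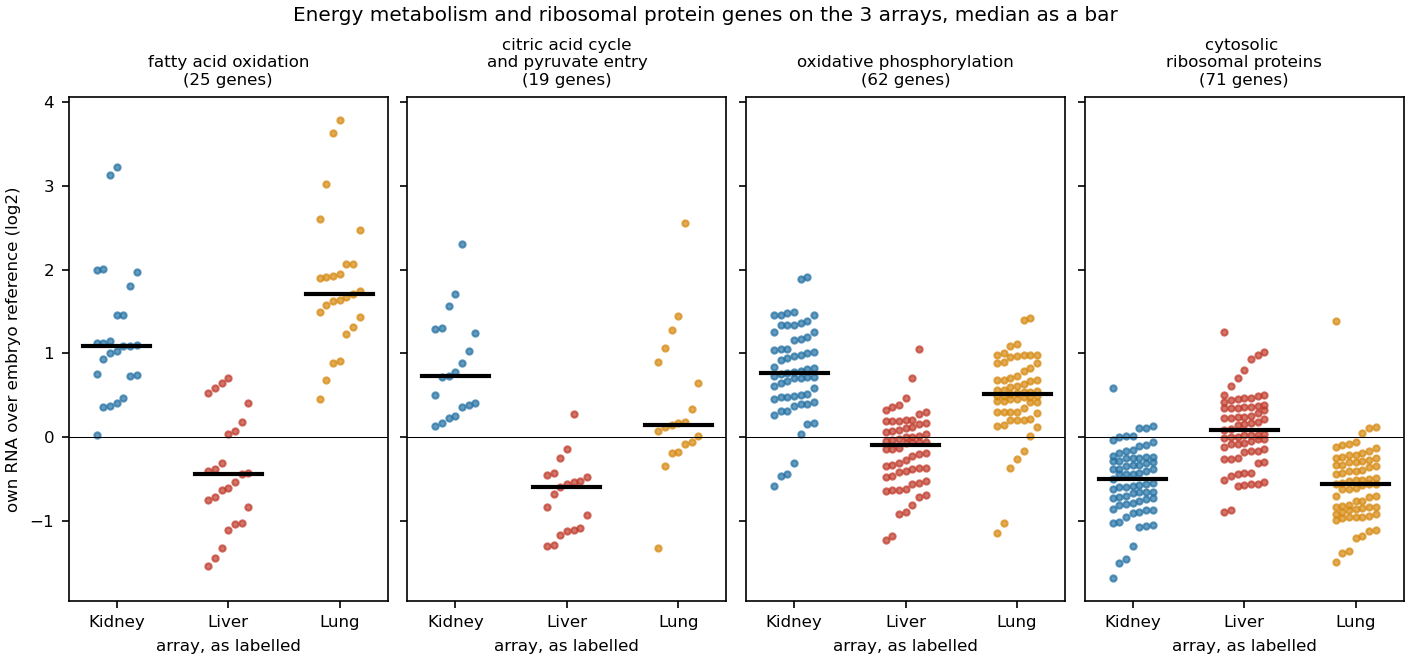
Levels (log2 own RNA over embryo reference) of single genes on the arrays labelled Kidney, Liver and Lung for fatty acid oxidation, the citric acid cycle with pyruvate entry, oxidative phosphorylation and cytosolic ribosomal proteins, with the median as a bar. In the energy groups the array labelled Liver is the lowest of the 3, at medians of -0.44, -0.59 and -0.10, and for ribosomal proteins it is the highest, at 0.08.

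Amino acid breakdown and the urea cycle, also a list added after the values were seen, had a median of -2.04 over 17 genes, with 12 at least 2-fold below the mean and 11 below both arrays. Rida, a deaminase of reactive imines, stood at -0.02, 4.66 and 4.76 on the arrays labelled Liver, Kidney and Lung, 25.7-fold below the lower. Fah, the last enzyme of tyrosine breakdown, was at -0.83, 2.27 and 3.70, and Asl, argininosuccinate lyase, at -0.63, 2.08 and 3.66. Glud1, glutamate dehydrogenase, stood at -0.90, 1.04 and 2.53, and the probes of Got2, the mitochondrial aspartate aminotransferase, went opposite ways, one 1.09 below the lower array and one 1.90 above the higher. The list's median level was -0.30 on the array labelled Liver and -0.65 to 0.46 on the other 8.

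The 15 genes furthest below both arrays were headed by Frrs1, a ferric reductase, at -1.46, 3.40 and 3.38, 28.6-fold below the lower array. Cyp2c23, an epoxygenase of kidney and liver, stood at -1.01, 2.67 and 5.47, Slc25a13, the aspartate and glutamate carrier of mitochondria, at -1.33, 2.01 and 2.76, and Hpn, a membrane serine protease, at -0.46, 2.76 and 3.42. Retsat, a retinol saturase, Aldh9a1, an aldehyde dehydrogenase, Galm, galactose mutarotase, Hebp1, a haem-binding protein, and Entpd5, a nucleotidase of the endoplasmic reticulum, lay 2.92 to 3.36 below the lower array. Hsd3b4, a steroid dehydrogenase, Sephs2, of selenocysteine synthesis, and Cryz, a quinone reductase, were among the lowest against the mean, at -1.11, -1.17 and -0.79 on the array labelled Liver. Rnf128, a ubiquitin ligase, was lower in both of its probes, by 3.80 and 2.41. Serpina1e, an alpha-1 antitrypsin, was low on the arrays labelled Liver and Kidney, at -6.80 and -3.62, and high at 3.09 on the array labelled Lung. Both other arrays stood above the reference in 14 of these 15 genes. The array labelled Liver stood below it in 14, and in 11 its level lay within the range of the 6 line arrays. Of 339 genes below both arrays with a value on the array labelled Melan A, 196 were also at least 2-fold below that one.

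Detoxifying enzymes and antioxidants were lower on balance than on the arrays labelled Kidney and Lung. Of 36 measured, 15 (41.7%) were at least 2-fold below the mean and 2 (5.56%) above it, where 8.79% and 10.1% of all genes were. Below both arrays were 6 (16.7%) and above both 2 (5.56%), against 4.81% and 6.59% of all genes. The median was -0.83, or -0.58 against the array labelled Kidney alone. As a level, the list's median was 0.05 on the array labelled Liver, and -0.58 to -0.08 on the other 8. Cat, the peroxisomal catalase, stood at -0.52, 1.98 and 3.99 on the arrays labelled Liver, Kidney and Lung, Gpx1, a glutathione peroxidase, at -0.45, 1.97 and 3.02, and Ephx2, the soluble epoxide hydrolase, at -0.28, 1.36 and 3.74. Adh5, Selenop, Gss and Sod1 were 1.46 to 2.03 below the mean. Cyp2s1, a cytochrome P450 of epithelia, was the reverse at 2.67, -0.02 and -1.68, and it was 2.69 above the highest of all other arrays. Among 35 genes of lipid synthesis, 11 were at least 2-fold lower than the mean and Lpcat1 was the only one above it by as much. Pemt, which makes phosphatidylcholine by methylation, was at -1.53, -2.42 and 4.05, Dhcr7, of cholesterol synthesis, at -1.35, -1.04 and 2.03, and Idi1, of isoprenoid synthesis, at -0.04, 0.17 and 3.23. Fads1, Plin2, Lss and Fdft1 were 1.23 to 1.66 below the mean and also highest on the array labelled Lung. These low values rest on the array labelled Lung, as the list's median was -0.43 overall and -0.15 against the array labelled Kidney alone.

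Lysosomal genes had a median of -0.23 over 37, with 9 at least 2-fold lower than the mean and 4 higher. These are 24.3% and 10.8%, where 8.79% and 10.1% of all genes were, so the higher share is near that of all genes. Ctsl, a cysteine protease, stood at -0.54, 1.14 and 1.16 on the arrays labelled Liver, Kidney and Lung, and Lamp2, of the lysosomal membrane, at 0.41, 1.80 and 1.89. Neu1, Npc1 and Lgmn were 1.37 to 1.58 below the mean. Npc2, a cholesterol carrier, was at 1.14, -0.33 and -0.21, and Pla2g15, a lysosomal phospholipase, was 1.14 above the mean.

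Ribosomal proteins were slightly higher, with 64 of 71 above the mean, 15 of them by at least 2-fold and 9 above both arrays by as much, none lower by 2-fold, and a median of 0.70. The median level was 0.08 on the array labelled Liver, -0.50 on Kidney and -0.55 on Lung, and -0.28 to 0.42 on the other 8. Rps27 stood furthest out, at 1.25, -0.87 and -0.61. Rpl13, Rpl35a, Rpl34, Rps7, Rps15a and Rps24 lay 1.20 to 1.52 above the mean. Rps21, in 3 probes, lay 0.87 to 1.20 above the higher array, and Rps16, in 3 probes, 0.82 to 1.19. Rpl26 also had several probes, and stood at 0.71, -0.24 and -0.34. Genes of cell division differed little, with a median of 0.17 over 52 genes, 4 at least 2-fold above the mean and 2 below it. These are 7.69% and 3.85%, where 10.1% and 8.79% of all genes were. Mki67, the Ki-67 antigen of cycling cells, stood at -1.43, -3.08 and -1.95, and Top2a, the topoisomerase of dividing cells, at -1.51, -3.04 and -2.11. Stmn1, which destabilises microtubules, and Ccne1, cyclin E, were 1.55 and 1.03 above the mean, and Cdc6, which licenses replication, 1.01 below it. Mad2l1, a spindle checkpoint protein, was the lowest member at -1.59, 0.59 and 0.47. Mki67 and Top2a were below the embryo reference on all 3 arrays.

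Immediate early genes, which are transcribed within minutes of a stimulus, were higher in 18 of 20, with 9 at least 2-fold above the mean, 8 above both arrays, none 2-fold below, and a median of 0.94, or 0.99 against the array labelled Kidney alone. Ier3 stood at 3.15, 0.59 and -1.98 on the arrays labelled Liver, Kidney and Lung, and the other 8 reached 2.77. Jun, a subunit of AP-1, was at 1.85, -0.48 and -0.75, and the other 8 reached 1.61. Klf4, a zinc finger factor, stood at 0.44, -2.69 and -3.13, and its probes gave 3.05 and 3.21 above the higher array. Socs3, Ier5, Rhob and Nfkbia lay 1.03 to 1.38 above the higher array, and Egr1 0.62.

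Transcription factors known from lung development were written as 48 genes, of which 17 were measured. Of these, 6 (35.3%) were at least 2-fold above both arrays and none below both, where 6.59% and 4.81% of all genes were. Gata6, which acts in lung endoderm, stood at 1.47, -1.26 and -0.37 on the arrays labelled Liver, Kidney and Lung, but the array labelled Melan A was close at 1.37. Klf5, an epithelial zinc finger factor, was at -0.10, -2.36 and -3.62, Sox4 at -0.12, -1.82 and -2.68, Tbx3 at 2.03, -0.32 and 0.73, and Tcf21, of lung mesenchyme, at 1.73, 0.55 and -0.42. Id2, an inhibitor of basic helix-loop-helix factors, was at 0.36, 1.67 and 1.23. In the signalling list, 6 of 24 genes (25%) were above both arrays and 1 (4.17%) below both. The share below both is near that of all genes. Bmpr2, the BMP receptor of pulmonary vessels, stood at 1.76, 0.20 and -0.56, Id1 and Id3, targets of BMP signalling, were 1.74 and 1.49 above the higher array, and Tgfb2, a TGF-beta ligand, was at -0.95, -2.59 and -2.79. Nkd2, which restrains Wnt signalling, was 1.85 and Apcdd1, a Wnt inhibitor, 1.22 above the higher array, whereas Dkk1, also a Wnt inhibitor, was 1.18 below the lower.

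Of 18 imprinted and fetal growth genes, 4 were at least 2-fold above both arrays, with a median of 0.57. Cdkn1c, an imprinted inhibitor of cyclin-dependent kinases, stood at 0.37 on the array labelled Liver, -4.07 on the array labelled Kidney and -5.22 on the array labelled Lung, 4.45 or 21.8-fold above the higher. The other 8 lay at -6.62 to -4.17, so the array labelled Liver alone reached the level of the embryo reference. Gpc3, a glypican that restrains growth, was at -1.05, -2.68 and -3.78, and Sgce, a sarcoglycan, at 0.15, -2.31 and -1.95. Grb10 and Dlk1 were 1.12 and 0.91 above the higher array.

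Over 16 ion and water transport genes the median was 0.43 from the mean and 0.02 from the higher array. Of these genes, 5 (31.25%) were at least 2-fold above the mean and none 2-fold below, where 10.1% and 8.79% of all genes were. Above both arrays were 3 (18.75%), against 6.59% of all genes. Slc39a8, a zinc and manganese transporter, stood at 2.18, 0.89 and 0.48 on the arrays labelled Liver, Kidney and Lung. Clic4, named for a chloride channel, was 1.30 above the mean. Atp2b1, a calcium pump of the plasma membrane, and Slc12a4, a potassium chloride cotransporter, were 1.07 and 1.11 above the higher array.

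Several of the genes furthest above both arrays belong to the actin cytoskeleton. In a list of 24 measured genes added after the values were seen, 13 were at least 2-fold above the mean, 8 above both arrays and 1 below the mean by as much, with a median of 1.17. Gsn, the filament-severing protein gelsolin, stood at 2.89, -1.49 and -3.17 on the arrays labelled Liver, Kidney and Lung, with the other 8 reaching 2.26. Tmsb4x, a thymosin that binds actin monomers, stood at 2.67, -0.77 and -1.51, and Cnn2, a calponin, at 1.13, -2.02 and -2.71, where the other 8 reached 2.56. Anxa2, an annexin that links membranes to actin, was at 0.88, -2.21 and -3.79, with the others at -1.73 to 1.95. Gnai2, an inhibitory G protein subunit, was 1.43 to 1.67 above the higher array in its 3 probes, Marcks, an actin cross-linker at membranes, 1.13 to 1.74, and Sptbn1, a spectrin, 0.77 to 1.24 in 4. Of other genes with 3 or more probes, Ctnna1, a catenin, stood at 1.25, 0.38 and -0.18, Calm2, a calmodulin, at 0.21, -0.55 and -0.80, and Tpm3, a tropomyosin, at 0.66, -0.22 and -0.47.

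Among genes with 3 probes, Agr2, a disulfide isomerase of mucus-secreting cells, lay 0.83 to 3.28 above the higher array and was higher on the array labelled Liver, at 1.36, than on any other. Wfdc2, a protease inhibitor of airway secretions, stood at 4.95, 2.37 and -1.26 on the arrays labelled Liver, Kidney and Lung, and at -3.59 to -2.15 on the other 8. Pdgfa, a growth factor that lung epithelium sends to fibroblasts, was at 1.46, -1.24 and -2.42, while the other 8 reached 2.08. Snw1, a cofactor of splicing and transcription, was at 4.19, -0.69 and -0.32, 22.8-fold above the higher array, by 1 probe. Of the 25 genes furthest above both arrays, 20 had 1 probe, and for those no spread between probes could be given.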

How the data were processed

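RNA of 11 samples was measured on 2-colour cDNA arrays, with 1 array per label, and the arrays labelled Liver, Kidney and Lung were compared. Log2 is the assumed unit of the values the authors deposited, which set 1 channel of an array against the other. Neither the logarithm's base nor background correction, normalization and direction of the ratio are stated in the labels or headers. In the deposited log2 values, the array farthest from the others on each marker list was found. Its deviation from them was -4.20 for lung genes (array labelled Liver) and -5.90 for liver genes (Lung). For kidney genes it was -3.72 (Kidney) and for heart genes -4.10 (Melan A), so the sign was turned. Signal intensities were not used, so how far a spot stood above background is unknown, and having 1 array per label limits the precision.

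Of 15247 probes, 9600 had 1 gene symbol in the platform's annotation, 214 had several and 5433 were not listed. RefSeq's gene table for GRCm38.p6 held 9492 of the 9600 by gene number and changed 0 of their symbols, so 108 were named from the annotation alone. The median of an array was subtracted from its values and probes of 1 symbol were averaged, giving 7114 genes, of which 7068 had a value on all 3 arrays. Differences of 1 on the log2 scale (2-fold) were counted, with no test. Counts of a gene list are to be read against the shares of all genes, printed with the first of them.

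Named were the 25 genes furthest above the higher array, the 15 furthest below the lower, 10 further genes in each direction against the mean, 10 with 3 or more probes whose lowest probe lay furthest above both, the 4 markers, and the members of each list (all where 12 or fewer were measured, otherwise up to 8 by size among those 2-fold from the mean). Genes outside this rule, and all members named from the 9 lists added after the values were seen, were chosen after their values were seen. The markers and the 34 other lists were chosen with earlier results of these data known. Alternatives tried were other centring and scaling, other rules for probes, a 4-fold threshold, the natural logarithm, the sign as deposited and other comparison arrays. Scripts ran in Python 3.11.15 with pandas 2.3.3, numpy 2.4.6 and matplotlib 3.10.9 and were tested on simulated data.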

Additional observations from a re-analysis of the deposited data

Results flagged for a closer look

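Probes without a single gene name were outside the comparison of genes, and they carried differences too. Of 5605 such probes with a value on all 3 arrays, 217, or 3.87%, stood at least 2-fold above both the arrays labelled Kidney and Lung on the array labelled Liver, and 213, or 3.80%, stood at least 2-fold below both. The furthest above the higher array differed by 5.53 on the log2 scale, or 46.1-fold, and the next by 5.06. The furthest below the lower array differed by -8.11. No control array was run, and these probes are unnamed here, so what they measure was not tested.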

How the results depend on the processing

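With 1 array per label and 7068 genes, every count rests on single arrays, and most genes on 1 probe. Counts of genes 2-fold higher than the mean, 2-fold lower, 2-fold above both and 2-fold below both were 712, 621, 466 and 340. With the 1810 genes of 2 or more probes only, they were 107, 111, 72 and 56. Each of these is also a smaller share of the genes compared than its main count is of 7068. Read as natural logarithms they were 1193, 980, 810 and 566, and at 4-fold 152, 154, 97 and 71. Against the array labelled Kidney alone, 710 genes were 2-fold higher and 669 lower, and against the array labelled Lung alone 893 and 714, each set against the 466 and 340 that had to pass both. With the array labelled Melan A as another that had to be passed, 293 lay above all and 196 below all. With the array labelled Heart, 244 and 61 did, and 391 were lower than the mean of the 3. On that array the heart muscle list had a median of -0.93, within the -1.14 to -0.59 of the 6 line arrays. With the sign as deposited, the counts change places. The median of the secretory epithelium list, 4.36, was 5.61 with genes of 2 or more probes only and 6.29 with natural logarithms, and otherwise 3.92 to 4.92. Counts under quantile normalization, no centring, scaling to the median absolute deviation, the median of probes and 1 probe per gene were within 1.5 times of these.

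The kidney list's median, -1.53, turned to 0.31 against the array labelled Lung alone. The difference from the lowest array turned to above 0 when the array labelled Melan A was added for Frrs1 (0.50), Rida (0.59), Cyp2c23 (0.54), Hpn (0.12) and Fah (0.80), and when Heart was added for Pecr (0.19), Cyp2c23 (0.20), Hpn (0.53), Serpina1e (0.44) and Entpd5 (0.19). In each the added array was the lower one. Of 1579 alternatives for 110 gene values and 42 list medians, 1176 stayed within the spread between probes, 392 moved further and 11 turned. The share of higher among 2-fold different genes was 53.4%, 49.1% with 2 or more probes, 61.0% with the array labelled Heart added and 51.1% to 53.3% under the other scalings. No paired analysis was possible because each label has 1 array and the labels carry no replicate numbers.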

Other observations

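Further gene families differed between the array labelled Liver and the arrays labelled Kidney and Lung. These lists were added after the values were seen, so their counts describe the array only. Of 8 measured annexins, which bind membranes in the presence of calcium, all were above the mean of the arrays labelled Kidney and Lung, 4 were at least 2-fold above both arrays, and the median was 1.5, with Anxa3 at 2.30, -0.72 and -0.45 on the arrays labelled Liver, Kidney and Lung. Of 14 tetraspanins, membrane scaffolds, 3 (21.4%) were above both arrays and none below both, against 6.59% and 4.81% of all genes. Of 7 Kruppel-like factors, Klf4, Klf5 and Klf7 were above both, Klf7 by 1.36. Of 6 genes that shape caveolae and related membranes, 3 were above both, among them Ehd4 at 2.36, -0.08 and -1.13. Of 12 semaphorins, plexins and their partners, which guide axons and vessels, 4 were above both. Sema3f stood at 1.86, -0.88 and -1.21, Sema3c at 1.68, -0.50 and -1.66, and Nrp1, a semaphorin receptor, at 1.58, 0.15 and 0.09, whereas Sema4g was at -1.74, 0.21 and 2.52. Of 10 peroxisome genes all were below the mean and 4 below both arrays, among them Crot, which hands shortened fatty acids to mitochondria, at -0.42, 1.63 and 4.24. Median levels on the array labelled Liver were 0.80 for annexins, 0.16 for tetraspanins, 0.20 for Kruppel-like factors and -0.38 for peroxisome genes. Each of these lay within the range of the other 8 arrays. For the caveolae and semaphorin lists the medians were 1.16 and 0.10, above the 0.65 and 0.06 that the other 8 reached.

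Of 7 chemokines and cytokines, Csf1, the growth factor of macrophages, was above both arrays at 1.31, -1.72 and -0.77, and the median was 0.56. Ppbp, a platelet chemokine, was 1.30 above the mean, and Il18, Il16, Cxcl1, Cxcl12 and Ccl27a lay within 2-fold of it. Of 12 complement genes, Cd93, a receptor of endothelium and monocytes, was above both at 0.44, -1.10 and -1.35, and Cfi, the plasma protease factor I, below both at -3.04, -2.01 and 3.66, with a median of -0.47. Either gene is 8.33% of that list, where 6.59% and 4.81% of all genes stood above and below both. Mbl2, a plasma lectin, and Clu, clusterin, were 3.06 and 1.77 below the mean and highest on the array labelled Lung, and C1ra, C1s1, Serping1, Cr1l and Cd55 lay within 2-fold of it. The skeletal muscle genes Tnnt1 and Mylpf were 1.14 and 1.16 above the mean and below the reference on all 3 arrays. Genes highest on the array labelled Liver of all 11 also included Ccdc153, a coiled-coil protein, by 2.64 over the next array, Eya2, a transcriptional cofactor, by 2.61, Cbln1, a secreted cerebellin, by 2.59, and Ripply3, a transcriptional repressor, by 1.93.

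Genes of no list above stood above both arrays as well. Exoc8, named for a subunit of the exocyst, stood at 3.55, 0.47 and -1.83 on the arrays labelled Liver, Kidney and Lung. Maml1, named for a Notch coactivator, was at 0.03, -3.25 and -3.40, Hnrnph1, named for an RNA-binding protein, at -0.15, -3.46 and -4.03, and Plac9a at 1.67, -1.83 and -1.80. Each rests on 1 probe. Over the 11 arrays, the closest to Exoc8 of 7034 gene profiles was that of Mgp, with a mean gap of 0.47. For Plac9a it was that of Crip1, at 0.41. Maml1 lay closest to Cntn4, at 0.16, and next to Alas2, at 0.37. Alas2 also lay near Hnrnph1, at 0.64. Whether these probes measure the genes they are named for was not tested.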
